A study of Mus musculus with 9 samples.

Results

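The calcium/calmodulin kinase genes described here are 10 genes taken by name from a table of 21423 genes: Camk2a, Camk2b, Camk2d, Camk2g, Camk4, Camk1, Camk1d, Camkk1, Camkk2 and Camkv. They were measured by mRNA sequencing of the nucleus accumbens, a ventral striatal region of the reward circuit, in adult male C57BL/6 mice 2 to 5 months old. The withdrawal mice received cocaine daily for 7 days and were killed 8 days after the last injection. The cocaine mice received the same 7 daily injections and were killed 24 h after the last one. The saline mice received 10 ml/kg of saline on the same schedule as the cocaine mice, also with 24 h to harvest. All injections were intraperitoneal, and the labels give the cocaine dose as 10 or 20 mg/kg without tying a dose to a sample. RNA of 8 mice was pooled per group into 1 library, and each library was run in 3 lanes, so the 9 samples are technical lanes of 3 libraries. No difference between treatments has a replicate check, and no p-value is given.

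Calcium entering a neuron binds calmodulin, which then relieves the autoinhibition of these kinases. CaMKII assembles from alpha, beta, delta and gamma subunits (Camk2a, Camk2b, Camk2d, Camk2g), phosphorylates itself, and is among the most abundant proteins of the postsynaptic density. CaMKI (Camk1, Camk1d) and the mainly nuclear CaMKIV (Camk4) also need phosphorylation by an upstream kinase, CaMKK (Camkk1, Camkk2), for full activity. CaMKIV phosphorylates the transcription factor CREB. Camkv encodes a vesicle-associated, calmodulin-binding relative that lacks kinase activity. CaMKII in the accumbens is known from rodent work on cocaine reward and on the reinstatement of drug seeking.

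The CaMKII genes are close paralogs, so their sequences at the read length of 37 bases decide how well their reads can be told apart. The stretch below holds the longest identical run found between the coding sequences of any pair of Camk2b, Camk2d and Camk2g, with 15 bases on each side. It covers coding positions 298 to 356 of all 3 genes and crosses 1 splice junction (GENCODE M21, build GRCm38). Capitals mark the 9 positions at which the 3 genes are not all alike.
Camk2b, chr11:5992878-5997926, minus strand: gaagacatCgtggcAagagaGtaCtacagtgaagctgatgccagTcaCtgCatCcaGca
Camk2d, chr3:126767536-126770799, plus strand: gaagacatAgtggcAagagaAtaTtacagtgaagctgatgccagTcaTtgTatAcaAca
Camk2g, chr14:20766211-20770107, minus strand: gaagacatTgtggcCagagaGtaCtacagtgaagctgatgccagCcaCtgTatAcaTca
The longest identical run was 29 bases, between Camk2b and Camk2g, and 23 bases for each of the other pairs, all shorter than a read. The 37-base windows of each member's coding transcripts were looked up in all annotated transcripts, on both strands. None of those of Camk2b (4702 windows), Camk2d (8712), Camk2g (4088), Camkk1 (3423) or Camkv (3545) occurred in a transcript of another gene. Camk2a shared 0.716% of its windows with other genes and none with the other members. Camk1d shared 0.198%, of which 6 windows lay in transcripts of other members, and Camkk2 0.159%. Camk1 had the highest share, 1.94%, all with Ogg1, and Camk4 shared 1.22%, all with 2310026I22Rik. A read in those stretches cannot be assigned to 1 gene by its own sequence, and pairs of reads were not examined. The count covers exact matches, and the mismatches allowed in the authors' alignment are not given in the sources used here.

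Levels are RPKM (reads per kilobase of gene model, scaled to the lane's read total), which compare genes per length. Lane totals ran from 5546362 to 12026754, and lanes of a library correlated at 0.976 to 0.985 on the log2 scale. All 10 members passed the filter of a mean of 1 RPKM over the 9 lanes, as did 14051 genes in all. The thinnest value behind a member was 416 reads, for Camk1d in 1 lane, where counting error alone is 4.90%. The deepest was 32140 reads, for Camk2b.

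In each library Camk2a, Camk2b and Camkv stood far above the other members. Camk2a ranked 161st, Camk2b 165th and Camkv 277th among all 21423 genes by mean RPKM. Camk2g, Camk1 and Camkk1 formed a middle group at 59.8 to 73.6 RPKM as library means. Their order within this group changed between libraries, with overlapping lanes between Camk2g and Camkk1 and between Camkk1 and Camk1 in withdrawal, between Camk1 and Camk2g in cocaine, and between Camk2g and Camk1 and between Camk1 and Camkk1 in saline. Camkk2 followed at 23.5 to 25.9 RPKM, then Camk2d and Camk4, whose lanes overlapped in the withdrawal and saline libraries. Camk1d was lowest in all 3 libraries, at 5.93 to 8.43 RPKM. These ranks rest on the authors' gene models. The model length recovered from the values was 9044 bp for Camk2b, 2.04 times the annotated exon length, and 12359 bp for Camk4, 4.55 times, while it was 1.01 times for Camk2a and 0.919 times for Camkv. A model longer than the transcripts lowers a gene's RPKM, so ranks between genes depend on it. Dividing by the same length leaves the ratio of 1 gene between libraries unchanged. Differences centred by gene model length, given below, do depend on it.

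**Figure D1:**
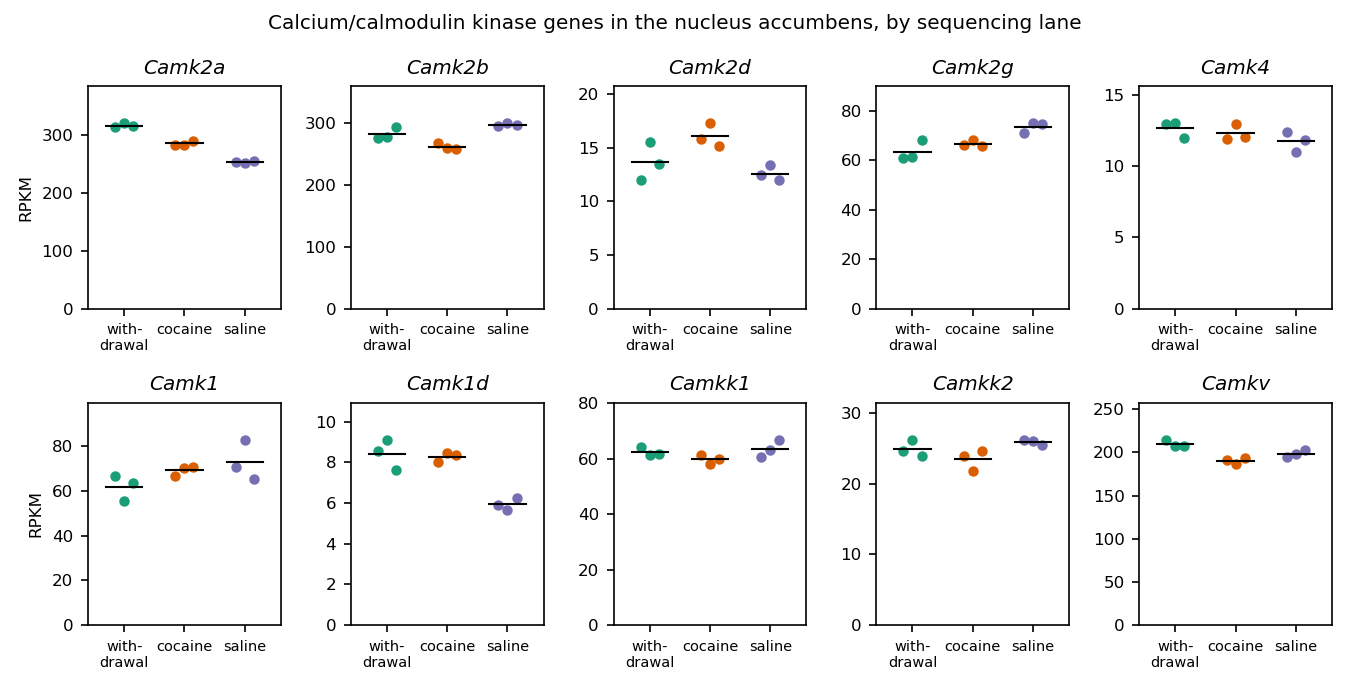
RPKM (vertical axes, each from 0) of the 10 calcium/calmodulin kinase genes in the withdrawal, cocaine and saline libraries; points are the 3 sequencing lanes of a library and lines their mean. Camk2a separates into 3 steps without overlap, Camk1d is higher in withdrawal and cocaine than in saline, and the lanes of Camk4 and Camk1 overlap between all libraries.

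Camk2a, the alpha subunit and the main CaMKII of forebrain neurons, differed most clearly. It had 313, 320 and 314 RPKM in the lanes of the withdrawal library, 283, 283 and 289 RPKM in the cocaine library, and 253, 252 and 255 RPKM in the saline library. Every withdrawal lane lay above every cocaine lane, and every cocaine lane above every saline lane. The log2(RPKM + 0.5) difference, with a standard error taken over lanes and so free of any spread between mice, was 0.17 ± 0.012 for cocaine minus saline and 0.32 ± 0.011 for withdrawal minus saline. It was 0.15 ± 0.014 for withdrawal minus cocaine. As percentages of mean RPKM, Camk2a was 12.7% higher in cocaine than in saline and 24.9% higher in withdrawal than in saline.

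Camk2b, the beta subunit, which also binds actin filaments, went the other way. It had 276, 278 and 294 RPKM in withdrawal, 268, 260 and 259 RPKM in cocaine, and 295, 301 and 298 RPKM in saline. Saline lanes were highest and cocaine lanes lowest, again without overlap, although the highest withdrawal lane came close to the lowest saline lane. The log2 difference was -0.18 ± 0.018 for cocaine minus saline, -0.076 ± 0.030 for withdrawal minus saline and 0.11 ± 0.033 for withdrawal minus cocaine.

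Camk2g, the gamma subunit, was also lower than in saline in both cocaine-exposed libraries. Its lanes held 60.9, 61.2 and 68.2 RPKM in withdrawal, 66.1, 68.1 and 65.9 RPKM in cocaine, and 71.1, 75.1 and 74.7 RPKM in saline. All lanes of the first 2 libraries lay below all saline lanes, and withdrawal and cocaine overlapped. The log2 difference from saline was -0.14 ± 0.029 for cocaine and -0.22 ± 0.059 for withdrawal. Camk2d, the delta subunit best known from heart, was the scarcest CaMKII gene, with 12.0, 15.5 and 13.5 RPKM in withdrawal, 15.8, 17.3 and 15.2 RPKM in cocaine, and 12.4, 13.3 and 12.0 RPKM in saline. Cocaine lanes lay above saline lanes (0.34 ± 0.070), and withdrawal lanes overlapped both other libraries (0.11 ± 0.11 minus saline and -0.23 ± 0.12 minus cocaine).

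Summed over the 4 genes, CaMKII came to 676 ± 14 RPKM in withdrawal, 630 ± 2.5 RPKM in cocaine and 637 ± 4.9 RPKM in saline (mean ± SD over the 3 lanes of 1 library). On the authors' gene models, the withdrawal sum lay above both other libraries, whose lanes overlapped. The sum and the shares depend on these models, since that of Camk2b is 2.04 times its annotated exon length. The order of the sums per annotated exon length is not given here, so it holds for these models only. Camk2a made up 46.8 ± 1.0% of it in withdrawal, 45.2 ± 0.66% in cocaine and 39.7 ± 0.38% in saline. Camk2b made up 41.8 ± 0.71% in withdrawal, 41.6 ± 0.65% in cocaine and 46.8 ± 0.17% in saline. Camk2g made up 9.38 ± 0.44%, 10.6 ± 0.22% and 11.6 ± 0.26% in withdrawal, cocaine and saline, and Camk2d between 1.97% and 2.55% in the 3 libraries. A share within a lane does not depend on how that lane was scaled. The Camk2a share was thus 5.53 ± 0.44 percentage points higher in cocaine than in saline, and 7.05 ± 0.64 points higher in withdrawal than in saline. The Camk2b share differed by -5.14 ± 0.39 points in cocaine minus saline and by -4.93 ± 0.42 points in withdrawal minus saline. Withdrawal and cocaine overlapped for both shares (1.52 ± 0.72 points for Camk2a and 0.21 ± 0.55 points for Camk2b).

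The ratio of Camk2a to Camk2b put the same values in 1 number. It was 1.14, 1.15 and 1.07 in the withdrawal lanes, 1.06, 1.09 and 1.12 in the cocaine lanes, and 0.855, 0.837 and 0.856 in the saline lanes. Camk2a was thus the highest member in the withdrawal and cocaine libraries, and Camk2b in the saline library. This change of first place depends on the gene models: per annotated exon length the ratio was 0.555 ± 0.022 in withdrawal, 0.540 ± 0.015 in cocaine and 0.422 ± 0.0052 in saline, with Camk2b first throughout. The relative gap between libraries is the same on either length.

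**Figure D2:**
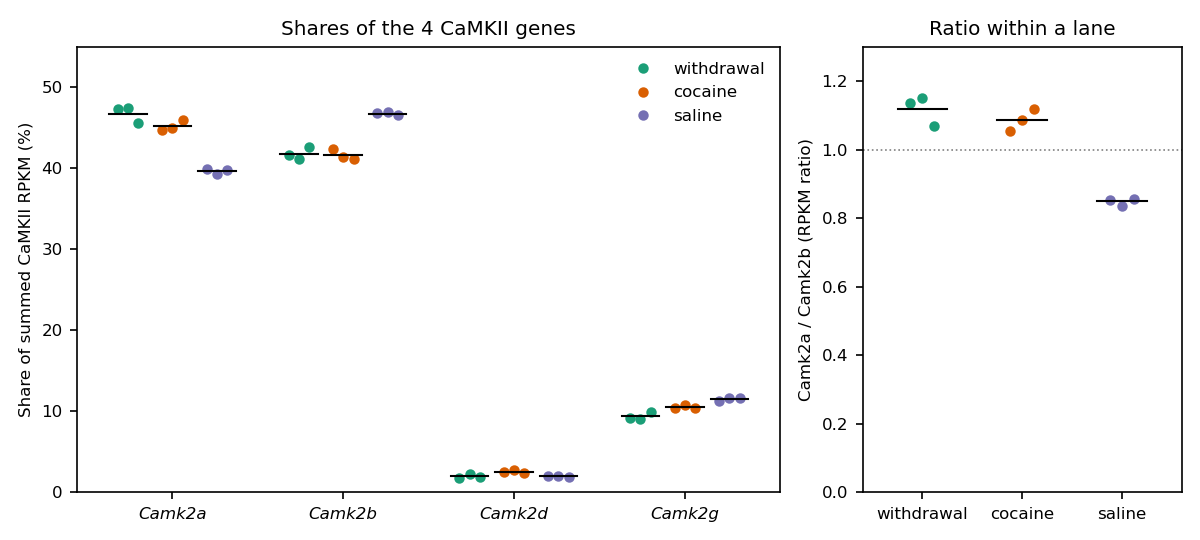
Left, share (%) of each of the 4 CaMKII genes in their summed RPKM; right, ratio of Camk2a to Camk2b RPKM within a lane, with the dotted line at equal levels. Points are the 3 lanes of the withdrawal, cocaine and saline libraries and lines their means. The saline ratios, 0.837 to 0.856, lie below those of the other libraries, 1.06 to 1.15.

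Among the upstream kinases, Camkk1 had 64.2, 61.4 and 61.6 RPKM in withdrawal, 61.4, 58.2 and 59.9 RPKM in cocaine, and 60.7, 63.3 and 66.9 RPKM in saline. Its saline lanes overlapped both other libraries, and the lowest withdrawal lane lay just above the highest cocaine lane (0.061 ± 0.030). Camkk2, which also activates AMP-activated protein kinase, had 24.6, 26.2 and 23.9 RPKM in withdrawal, 23.9, 21.8 and 24.7 RPKM in cocaine, and 26.3, 26.03 and 25.6 RPKM in saline. Cocaine lanes lay below saline lanes (-0.14 ± 0.055), and withdrawal lanes overlapped both. With the 75th percentile made equal in all lanes, the cocaine value came to -0.073 and the lanes overlapped. Centred by gene length, the withdrawal lanes lay below saline too (-0.16). The ratio of Camkk1 to Camkk2 was 2.51 ± 0.15 in withdrawal, 2.55 ± 0.13 in cocaine and 2.45 ± 0.16 in saline (SD over 3 lanes), differences smaller than the spread between lanes.

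Of the kinases that CaMKK activates, Camk1d, the delta form of CaMKI, had the largest log2 difference of any member before centring by gene length. After that centring, Camk2b, Camkk2 and Camk4 differed more from saline in cocaine, and Camk2b, Camk2a and Camkv in withdrawal. Camk1d had 8.53, 9.12 and 7.63 RPKM in withdrawal, 8.00, 8.45 and 8.36 RPKM in cocaine, and 5.90, 5.67 and 6.23 RPKM in saline. Both cocaine-exposed libraries lay above saline in every lane and overlapped each other. The difference from saline was 0.45 ± 0.043 for cocaine and 0.47 ± 0.079 for withdrawal, which is 39.4% and 42.0% of the saline mean. Camk1, the alpha form, ran from 55.4 to 66.8 RPKM in withdrawal, 66.7 to 70.8 RPKM in cocaine and 65.5 to 83.1 RPKM in saline. Camk4 ran from 11.9 to 13.0 RPKM in withdrawal, 11.9 to 12.9 RPKM in cocaine and 10.99 to 12.4 RPKM in saline. Without rescaling, neither gene had separate lanes in any comparison.

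Camkv had 215, 207 and 208 RPKM in withdrawal, 191, 187 and 193 RPKM in cocaine, and 195, 198 and 203 RPKM in saline. Withdrawal lanes were highest and cocaine lanes lowest without overlap. The differences were small, at -0.061 ± 0.023 for cocaine minus saline, 0.080 ± 0.024 for withdrawal minus saline and 0.14 ± 0.022 for withdrawal minus cocaine.

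Genes counted as called had a difference of 1.5 times or more and no overlap between the lanes of the compared libraries. By this rule 0 of 10 members were called in cocaine against saline, where 5.33% of tested genes were called, 2.93% higher and 2.41% lower. In withdrawal against saline 0 of 10 were called, with 7.33% of tested genes called, 3.96% higher and 3.37% lower. In withdrawal against cocaine 0 of 10 were called, with 1.02% called, 0.470% higher and 0.548% lower. With a size limit of 1.2 times, 2 members were higher in cocaine than in saline (Camk2d and Camk1d, where 12.2% of tested genes were higher) and 2 in withdrawal than in saline (Camk2a and Camk1d, where 13.5% were). Without any size limit, 3 members had higher and 4 lower lanes without overlap in cocaine against saline, where 18.3% and 23.9% of tested genes did (42.1% either way). In withdrawal against saline 3 were higher (18.6% of tested genes) and 2 lower (25.6%), 44.2% either way. In withdrawal against cocaine 4 were higher (8.66%) and 0 lower (9.42%), 18.1% either way. Without withdrawal lane 3 the members with separate lanes there came to 7, where 28.1% of tested genes had them. All 10 members also passed a filter at a mean of 5 RPKM. Among genes passing it, the shares either way were 49.8% in cocaine against saline, 51.9% in withdrawal against saline and 20.5% in withdrawal against cocaine. The members' median difference was -0.066 in cocaine minus saline, 0.027 in withdrawal minus saline and 0.050 in withdrawal minus cocaine, beside -0.047, -0.056 and -0.0074 over all tested genes. The 3 comparisons share libraries, so they are not independent of each other. Camk2a, Camk2b and Camkv had separate lanes in all 3 comparisons, as did 7.07% of tested genes. The order of Camk2a, withdrawal over cocaine over saline, was shared by 2.59% of tested genes, that of Camk2b, saline over withdrawal over cocaine, by 0.968%, and that of Camkv, withdrawal over saline over cocaine, by 0.178%. With the median difference of all tested genes set to 0, Camk2b lanes overlapped in withdrawal against saline and Camkv lanes in cocaine against saline. The same lanes overlapped with the 75th percentile made equal in all lanes.

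In both comparisons with saline, the excess of genes called higher over genes called lower depended on the scaling. In cocaine against saline 411 genes were called higher and 338 lower, but 535 and 204 when the 75th percentile was made equal in all lanes, and 476 and 98 with differences centred within 20 bins of gene model length. In withdrawal against saline 557 were higher and 473 lower, but 765 and 280 with the percentile scaling and 595 and 174 with length centring. After length centring Camk2a stayed higher in cocaine (0.10) and in withdrawal (0.25) than in saline, and Camk2b stayed lower (-0.39 and -0.28), with separate lanes in each case. The bins use the recovered models, which are 2.04 times the annotated exon length for Camk2b and 4.55 times for Camk4. Centred values of these genes rest on those lengths, and centring on annotated lengths was not tested. Camk1d, whose model is 11542 bp, came to 0.15 in cocaine and 0.19 in withdrawal, with lanes that overlapped in withdrawal. Camk2d came to 0.040 in cocaine, with lanes that overlapped, and its withdrawal value changed sign to -0.17. Camk4, whose model is the longest of the 10, came to -0.24 in cocaine and -0.18 in withdrawal, with separate lanes below saline. With the percentile scaling its lanes were instead separate above saline, at 0.13 in cocaine and 0.17 in withdrawal. With the median set to 0 they were separate above saline in withdrawal (0.16). Camkv in cocaine minus saline turned to 0.041 with length centring and to 0.011 with the percentile scaling. The percentile scaling brought Camk2b in withdrawal minus saline to -0.0020, with lanes that overlapped. They also overlapped with the median set to 0 (-0.020). Under the percentile scaling the lanes of Camk2g overlapped in both comparisons with saline (-0.070 in cocaine and -0.14 in withdrawal). With length centring those of Camk2g overlapped in withdrawal minus saline (-0.15).

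**Figure D3:**
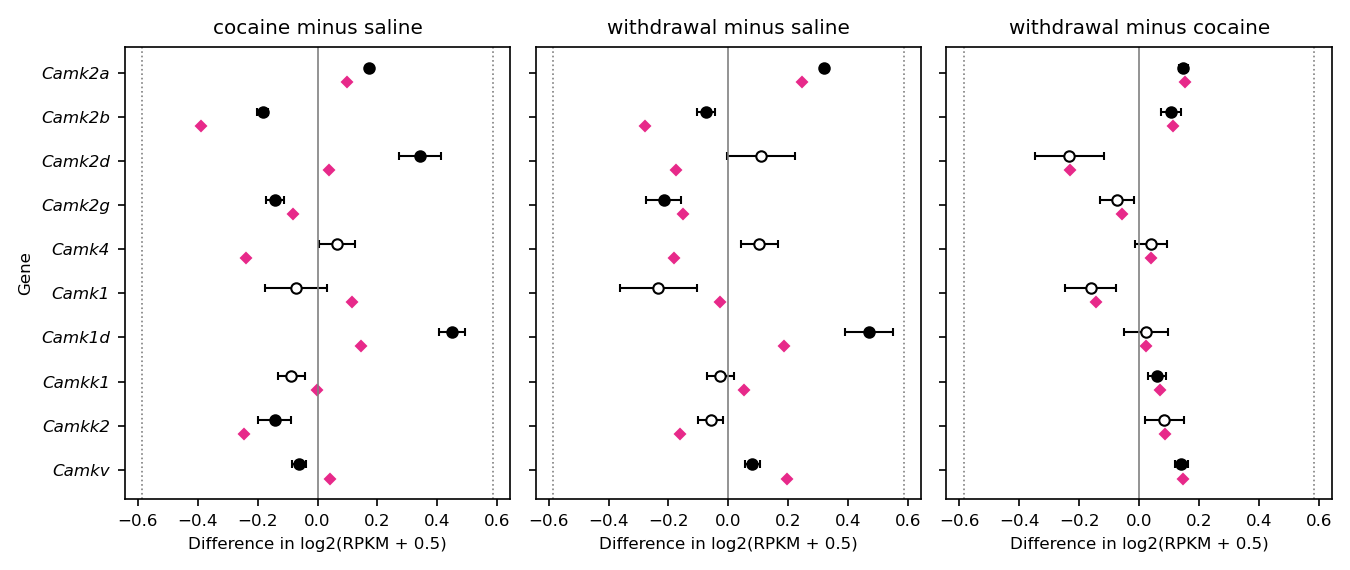
Difference in log2(RPKM + 0.5) (horizontal axis) of each member for cocaine minus saline, withdrawal minus saline and withdrawal minus cocaine; circles are lane means with the standard error from lanes, filled where lanes do not overlap, diamonds are centred by gene model length, and dotted lines mark 1.5 times. No member reaches 1.5 times; length centring moves Camk1d from 0.45 to 0.15 and Camk2b from -0.18 to -0.39 in cocaine minus saline.

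Genes that act on calmodulin and on CaMKII were compared from fixed lists, chosen with earlier results of these data known. The background for each count is the share of all tested genes: in cocaine 2.93% were called higher and 2.41% lower, and 18.3% had higher and 23.9% lower lanes without overlap. In withdrawal 3.96% were called higher and 3.37% lower, and 18.6% and 25.6% had such lanes. Calmodulin itself and the small proteins that bind it were lower than in saline: all 7 tested genes of this list had lower lanes without overlap in cocaine and in withdrawal. The list median was -0.40 in cocaine and -0.53 in withdrawal, and 2 genes were called lower in each comparison and 0 higher. Pcp4, which speeds calcium exchange on calmodulin, fell to 126 ± 13 RPKM in withdrawal and 126 ± 6.5 RPKM in cocaine, against 242 ± 20 RPKM in saline (SD over 3 lanes). Its relative Pcp4l1 fell to 132 ± 6.5 RPKM in cocaine, against 226 ± 1.7 RPKM in saline, and stood at 157 ± 6.9 RPKM in withdrawal without a call. Nrgn, neurogranin, which holds calmodulin at low calcium, fell to 100.3 ± 3.5 RPKM in withdrawal, against 160 ± 6.9 RPKM in saline, and had 125 ± 7.0 RPKM in cocaine without a call. The calmodulin genes Calm2 and Calm3 differed from saline by -0.45 and -0.25 in cocaine and by -0.58 and -0.27 in withdrawal, with no call. Centring by length ended the calls of Pcp4l1 in cocaine (-0.55) and Nrgn in withdrawal (-0.36), and the list medians came to -0.17 and -0.27.

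Camk2n1, which encodes a small protein that inhibits CaMKII, fell in both comparisons. It had 79.7, 74.9 and 71.0 RPKM in withdrawal, 85.6, 77.3 and 76.6 RPKM in cocaine, and 120, 120 and 120 RPKM in saline. All lanes of the first 2 libraries lay below saline, by -0.67 ± 0.048 in withdrawal and -0.59 ± 0.051 in cocaine, and overlapped each other. The cocaine value sits at the size limit. Its call ended under every scaling tried (-0.54 with the median set to 0, -0.51 with 75th percentile scaling, -0.56 centred by length), with a pseudocount of 1 (-0.58), and without cocaine lane 2 (-0.56), cocaine lane 3 (-0.56) or saline lane 1 (-0.58). The withdrawal call was kept under the same scalings, with the same pseudocount and without saline lane 1. Cocaine lanes do not enter that comparison. Camk2n2, the other inhibitor gene, had overlapping lanes (-0.13 ± 0.10 in cocaine and -0.15 ± 0.081 in withdrawal).

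Synaptic anchors and substrates of CaMKII were mostly higher than in saline. Of 16 tested genes, 11 had higher and 0 lower lanes without overlap in cocaine (all tested genes, 18.3% and 23.9%). In withdrawal 12 were higher and 1 lower (18.6% and 25.6%). Of the 16 genes, 4 were called higher and 0 lower in each of the comparisons with saline. Over all tested genes 2.93% were called higher in cocaine and 3.96% in withdrawal. The medians of the list were 0.25 in cocaine and 0.30 in withdrawal. Lrrc7, the scaffold densin, rose to 8.17 ± 0.41 RPKM in withdrawal and 8.21 ± 0.16 RPKM in cocaine, against 4.55 ± 0.38 RPKM in saline. The L-type calcium channel gene Cacna1c rose to 10.2 ± 1.6 RPKM in withdrawal and 9.34 ± 1.5 RPKM in cocaine, against 4.77 ± 0.24 RPKM in saline. Grin2a, an NMDA receptor subunit, was called as well (1.69 ± 0.095 in cocaine and 1.82 ± 0.11 in withdrawal). All 4 genes kept their calls when centred by length, where the medians came to 0.13 and 0.18.

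The targets of CaMKK, CaMKI and CaMKIV had 1 of 17 genes called higher in cocaine and 2 in withdrawal, with 0 lower (all tested genes, 2.93% and 3.96% higher). The medians of 0.17 and 0.13 came to 0.063 and 0.055 when centred by length. Hdac4, a deacetylase that leaves the nucleus when CaM kinases phosphorylate it, rose to 8.82 ± 0.19 RPKM in withdrawal and 7.64 ± 0.44 RPKM in cocaine, against 4.43 ± 0.58 RPKM in saline. Crtc1, a coactivator of CREB, rose in withdrawal (54.3 ± 1.7 RPKM, against 34.7 ± 1.4 RPKM in saline), a call that centring by length ended (0.535), and differed by 0.49 ± 0.067 in cocaine without one. Of 7 calmodulin-dependent cyclases, phosphodiesterases and nitric oxide synthase, Nos1 rose in cocaine and in withdrawal and Adcy1 in withdrawal, with 0 lower and medians of 0.23 and 0.12, or 0.11 and 0.12 when centred by length. Neuronal nitric oxide synthase, Nos1, had 15.2 ± 0.32 RPKM in withdrawal, 13.3 ± 0.13 RPKM in cocaine and 8.55 ± 0.58 RPKM in saline. Adcy1, a cyclase that calmodulin stimulates, had 21.8 ± 1.2 RPKM in withdrawal, 19.2 ± 0.32 RPKM in cocaine and 13.6 ± 0.41 RPKM in saline. Centring by length ended the calls of Nos1 (0.31 in cocaine and 0.52 in withdrawal) and Adcy1 (0.38), and leaving out saline lane 1 ended that of Nos1 in cocaine (0.58).

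No gene was called among 10 tested other kinases of the CaMK group, 11 of calcineurin and its regulators, or 9 phosphatases that act on CaM kinases, in any comparison, where 5.33%, 7.33% and 1.02% of all tested genes were called in cocaine against saline, withdrawal against saline and withdrawal against cocaine. Their medians were 0.011, -0.067 and -0.099 in cocaine and -0.076, -0.17 and -0.20 in withdrawal, each minus saline. Centring by length turned the medians of the other kinases to -0.046 in cocaine and 0.011 in withdrawal, and brought those of calcineurin and the phosphatases in withdrawal to -0.10 and -0.048. Pnck, the beta form of CaMKI, had 106 ± 6.2 RPKM in withdrawal, 106 ± 6.6 RPKM in cocaine and 119 ± 3.7 RPKM in saline. Ppp3ca, the main calcineurin catalytic subunit of forebrain, had 140 ± 6.1 RPKM in withdrawal, 152 ± 1.9 RPKM in cocaine and 185 ± 11 RPKM in saline. Ppp1r9b, spinophilin, which targets protein phosphatase 1 to spines, had 174 ± 8.6 RPKM in withdrawal, 157 ± 7.2 RPKM in cocaine and 166 ± 3.6 RPKM in saline. In withdrawal against cocaine, 0 genes of any of these 8 lists were called.

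**Figure D4:**
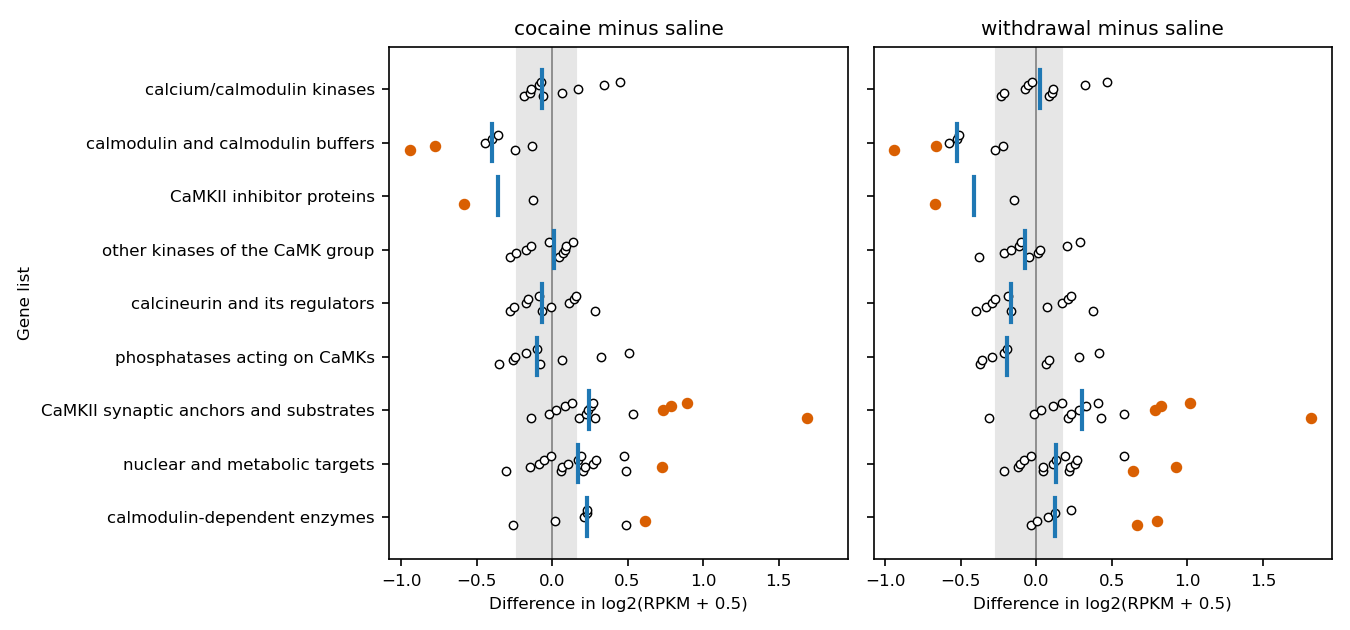
Difference in log2(RPKM + 0.5) of every tested gene of the kinase members and of 8 fixed lists, for cocaine minus saline and withdrawal minus saline; filled points are called genes, blue bars list medians, and the grey band the interquartile range of all tested genes. Calmodulin buffers and CaMKII inhibitors lie left of 0 (medians -0.40 and -0.36 in cocaine), while synaptic anchors and substrates lie mostly right of it (0.25).

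Genes with a profile like that of Camk2a were sought among 6704 genes with at least 10 RPKM, by Euclidean distance of centred log2 values over the 9 lanes. Among the 5 nearest were Pacs2 (distance 0.084), Grid1 (0.088), Sort1 (0.099) and Coro7 (0.10). Sort1, the sorting receptor sortilin, had 43.8 RPKM in withdrawal, 39.3 RPKM in cocaine and 33.5 RPKM in saline as means. For Camk1d the nearest were Nfat5 (0.13), Dlg2 (0.14), Xpr1 (0.15), Setd7 (0.16) and Slc24a2 (0.17). Dlg2, the postsynaptic scaffold PSD-93, had 31.2 RPKM in withdrawal, 30.9 RPKM in cocaine and 22.4 RPKM in saline.

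Markers of the tissue and of other cells moved between the libraries too. In these bulk samples fewer cells of a type and less RNA per cell cannot be told apart. All 11 medium spiny neuron markers were present, including both dopamine receptor genes, and their summed level over the lanes was 1783 to 1793 RPKM in withdrawal, 1474 to 1565 RPKM in cocaine and 2020 to 2118 RPKM in saline. Most of that sum was Penk (840, 775 and 1018 RPKM in withdrawal, cocaine and saline) and Ppp1r1b (498, 389 and 655 RPKM). Over the 11 genes the median difference from saline was -0.29 in cocaine, with 2 positive and 9 negative, and -0.011 in withdrawal, with 5 positive and 6 negative. In withdrawal minus cocaine the median was 0.33, with 11 positive and 0 negative. There 10 of the 11 had higher lanes without overlap, as did 8.66% of all tested genes. Of these genes, Ppp1r1b and Tac1 were called lower in cocaine and Pde10a higher in withdrawal, each against saline, and centring by length ended the call of Pde10a (0.41). The 9 cortical projection neuron markers in the table summed to 19.3 to 21.1 RPKM in withdrawal, 20.7 to 24.6 RPKM in cocaine and 32.9 to 35.7 RPKM in saline, with none at 0 in all lanes. Slc17a7, the vesicular glutamate transporter of cortical neurons, made up most of the saline sum and most of its gap to the other libraries. It was called lower in both comparisons with saline, at 3.97 ± 0.58 RPKM in withdrawal, 5.54 ± 0.45 RPKM in cocaine and 18.3 ± 1.0 RPKM in saline. Of the other 4 tested, Cux2 had higher lanes without overlap (0.44 in cocaine and 0.48 in withdrawal), and the median over the 5 was -0.027 in cocaine and -0.39 in withdrawal. Fezf2 was called lower in withdrawal at 0.801 RPKM, against 1.63 RPKM in saline. Its call ended with a pseudocount of 1 (-0.56), centred by length (-0.54) and without withdrawal lane 2 (-0.58). Camk2a, Camkv and Nrgn are also abundant in cortical projection neurons. The 6 endothelial markers summed to 59.5 to 70.1 RPKM in withdrawal, 53.0 to 56.8 RPKM in cocaine and 38.9 to 39.5 RPKM in saline, with 3 called higher in cocaine and 6 in withdrawal. Of these calls, centring by length ended Flt1 in cocaine (0.50) and withdrawal (0.57), a pseudocount of 1 ended Tek in withdrawal (0.58), and leaving out saline lane 3 ended Cdh5 in cocaine (0.52) and withdrawal lane 3 Cldn5 in withdrawal (0.55). Summed astrocyte markers (6 genes) were 613 to 643 RPKM in withdrawal, 683 to 703 RPKM in cocaine and 761 to 785 RPKM in saline, and summed oligodendrocyte markers (6 genes) 1656 to 1668, 1706 to 1756 and 1830 to 1853 RPKM in withdrawal, cocaine and saline, with no calls in either list. Most of the astrocyte sum was Aldoc (467, 515 and 604 RPKM in withdrawal, cocaine and saline), while Aqp4 (0.37 in cocaine and 0.38 in withdrawal) and Slc1a3 (0.24 and 0.11) had higher lanes than saline without overlap. The 6 microglia markers, with no calls, summed to 90.9 to 99.0, 92.9 to 107.5 and 105 to 118 RPKM, and the 6 choroid plexus and ependymal markers to 6.90 to 9.31, 12.9 to 17.9 and 11.3 to 13.2 RPKM, in the same order of libraries. Among the choroid plexus and ependymal markers Ttr was called higher and Ccdc153 lower in cocaine than in saline, and Ttr lower in withdrawal than in cocaine. The call of Ccdc153 (-0.60) ended with a pseudocount of 1, with the composites, under all 3 scalings (-0.55 to -0.32), and without cocaine lane 1 (-0.39) or saline lane 2 (-0.47). The part of these shifts in the differences of the kinase genes was not tested.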

How the data were processed

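The authors deposited RPKM for each lane and a composite for each library, and the read totals stand in the file headers. The submitters' processing notes list Bowtie 0.12.7 and mm9. Counter and annotation are not given in the sources used here. Random-primed poly(A) RNA was read for 37 cycles from each end of inserts of about 200 bp, per the labels' protocols. The members and lists were chosen with earlier results of these data known. Groups and lane numbers come from the sample titles. Lanes were averaged on the log2(RPKM + 0.5) scale, which understates changes of low genes, after a filter at a mean of 1 RPKM. Gene model lengths were recovered as the smallest length that makes every lane value a whole multiple of 1/37 of a read. Since such reads are not whole, no count test was run. For 191 genes the recovered length was multiplied by 37. This was done where the product came closer to the annotated exon length (GENCODE M21) or the length was below 37 bp. Named genes were the members, every called gene of a pathway list or its most abundant gene where none was called, and the 5 genes nearest in profile to the highest member and to the one with the largest difference. Some genes that this rule names are not reported here. The size rule was tested on simulated data. Alternatives were the pseudocount, the filter, the size limit, the lane condition, median, 75th percentile and length scaling, composites in place of lanes, pairing by lane number and dropping lanes in turn. Python 3.11.15, numpy 2.4.6 and pandas 2.3.3 were used.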

Additional observations from a re-analysis of the deposited data

How the results depend on the processing

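Counts of called members stayed at 0 in all 3 comparisons under every alternative, except that a size limit of 1.2 times gave 2 higher in cocaine minus saline and 2 higher in withdrawal minus saline. Pairing lanes by number (the replicate block, where all 3 same-numbered differences must share a sign) left the counts of called members at 0 and gave 7, 7 and 5 members with separate lanes, beside 7, 5 and 4 without it, while the share of all tested genes was 55.9%, 57.9% and 35.8%, beside 42.1%, 44.2% and 18.1%; lane numbers mark technical runs only. Leaving out 1 lane gave 7 to 9 members with separate lanes in cocaine minus saline, 5 to 7 in withdrawal minus saline and 4 to 7 in withdrawal minus cocaine, where the 7 arose without withdrawal lane 3. Over all tested genes these shares were 49.9% to 51.0%, 51.6% to 53.1% and 26.4% to 29.3%; a smaller number of lanes overlaps less often by construction. Leaving out 1 lane kept the Camk2a share difference at 5.16 to 5.79 points for cocaine minus saline. In reads not divided by gene length the Camk2b share differed by -5.63 points in cocaine minus saline and the Camk2a share by 6.26 points in withdrawal minus saline. With 1 library per group, the data limit statements to these 3 pools.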
